A study of Mus musculus with 8 samples.

Results

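Genes of cholesterol, fatty acid and cholesterol ester metabolism were examined in neuro2a (N2a) cells, a mouse neuroblastoma line, after knockdown of Grp94. Hsp90b1 encodes Grp94, an Hsp90-family chaperone that works in the endoplasmic reticulum (ER), the organelle in whose membrane most of the enzymes of sterol synthesis and fatty acid desaturation reside. Affymetrix Mouse Gene 1.0 ST arrays were hybridised with RNA from cells transfected with an empty vector (4 arrays) or with vectors expressing an artificial microRNA against Grp94 (4 arrays, spelled Gep94 in the sample titles). All cultures received a plasmid of the same EmGFP-miR series and were harvested at the same time after a lipid-mediated transfection. Selection or sorting of transfected N2a cells is not described, so the share of cells that carried a plasmid is not known. Each group value may therefore cover cells with and without a plasmid. The study's methods name more than 1 Grp94 construct and also a non-targeting control, and the labels do not tell which construct was on which array. If the controls carried the empty vector, as titled, the groups also differed in expressing an artificial microRNA. Loss of Grp94 and other effects of that expression then cannot be told apart. Nothing in the labels says whether the arrays of a group came from separate cultures. RNA was prepared from whole transfected cultures, so fewer cells expressing a gene and less RNA per cell cannot be told apart.

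The set consisted of 36 genes, selected by name with earlier results of the same contrast in view, and it is therefore described here without any test. The deposited table holds 2395 transcript clusters, each a group of transcripts assigned to 1 gene or to genes that the probes do not separate, and it lists only those that passed the authors' own limit for this contrast. Of the 36 genes, 15 were listed, on 16 transcript clusters, and 21 were not. The listed share over the whole array cannot be set beside this, because the table holds only listed transcript clusters. Nothing is therefore read from this count or from the counts of listed genes by branch below. A gene that was not listed has no value here, which does not show that its expression was the same in both groups. For each transcript cluster the table gives 1 value per group, the authors' log2 mean centred near 0, so no spread between arrays and no level of expression can be given, and the neuronal identity of the line was not checked against marker genes. In all 2395 transcript clusters the values of both groups lay on opposite sides of 0. The values are centred for each transcript cluster, so nothing about expression is read from this. Differences below are the knockdown value minus the empty vector value on the log2 scale.

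Cells make cholesterol and fatty acids from the same precursor, cytosolic acetyl-CoA. The mevalonate pathway turns acetyl-CoA into isoprenoid units, squalene is built from these and closed into a ring, and a series of ER enzymes then converts the first sterol into cholesterol. Fatty acid synthase makes saturated chains that are elongated and desaturated in the ER. Genes of both branches are controlled by the SREBP transcription factors, which are made as ER membrane proteins and are held there by Scap and the Insig proteins when sterols are plentiful. Cholesterol in excess is esterified by Soat enzymes and stored in lipid droplets, from which hydrolases such as Nceh1 release it.

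Promoters were examined as a feature that the rule naming the genes did not use. The study as a whole concerns NF-Y, the factor that binds the CCAAT box and often acts beside SREBP at sterol genes. Because members were named by pathway, their share with a CCAAT box cannot be taken as independent of that naming. RefSeq promoters of build GRCm38.p6, 250 bases before to 50 after each annotated start, were found for 29 of the 36 genes, 12 of them listed. Coordinates of these promoters cannot be set against those of the deposited table, whose build is not given in the sources used here, since only 3 of the 16 transcript clusters overlapped their gene in GRCm38. The windows before the start are shown for Pmvk and Acss2, which had the lowest values, for Fasn and Insig1 as examples of the fatty acid and regulator lists, and for Nceh1 and Hsd17b7, the members that were higher. Each is written 5′ to 3′ on the strand of the gene, with capitals marking the CCAAT box (CCAAT, or ATTGG where it lies on the other strand) and the E-box (CACGTG).
Pmvk, chr3:89454291-89454540, plus strand: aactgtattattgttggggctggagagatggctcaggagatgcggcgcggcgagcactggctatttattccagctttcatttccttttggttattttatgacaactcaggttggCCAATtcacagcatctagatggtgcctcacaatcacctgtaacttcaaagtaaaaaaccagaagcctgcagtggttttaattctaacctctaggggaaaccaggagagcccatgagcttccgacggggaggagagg
Acss2, chr2:155517793-155518042, plus strand: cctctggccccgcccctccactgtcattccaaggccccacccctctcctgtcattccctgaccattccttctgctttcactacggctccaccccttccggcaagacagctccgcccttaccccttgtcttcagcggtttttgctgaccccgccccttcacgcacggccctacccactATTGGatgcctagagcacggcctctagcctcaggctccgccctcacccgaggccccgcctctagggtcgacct
Fasn, chr11:120824548-120824797, minus strand: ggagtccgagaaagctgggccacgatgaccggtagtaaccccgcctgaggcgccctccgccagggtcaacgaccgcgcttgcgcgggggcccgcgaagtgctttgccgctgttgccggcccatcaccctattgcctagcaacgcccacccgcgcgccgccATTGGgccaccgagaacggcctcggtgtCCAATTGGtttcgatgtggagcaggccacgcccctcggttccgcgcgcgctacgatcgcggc
Insig1, chr5:28071162-28071411, plus strand: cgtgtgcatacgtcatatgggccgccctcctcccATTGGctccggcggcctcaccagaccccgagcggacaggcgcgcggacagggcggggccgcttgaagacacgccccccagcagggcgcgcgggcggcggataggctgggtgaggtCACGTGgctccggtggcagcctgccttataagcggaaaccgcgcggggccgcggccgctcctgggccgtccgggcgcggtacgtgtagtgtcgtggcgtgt
Nceh1, chr3:27182754-27183003, plus strand: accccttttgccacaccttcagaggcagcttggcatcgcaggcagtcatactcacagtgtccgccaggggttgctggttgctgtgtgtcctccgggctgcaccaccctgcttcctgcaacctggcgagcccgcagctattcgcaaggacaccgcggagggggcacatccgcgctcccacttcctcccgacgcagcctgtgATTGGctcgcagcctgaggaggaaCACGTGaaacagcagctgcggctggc
Hsd17b7, chr1:169969206-169969455, minus strand: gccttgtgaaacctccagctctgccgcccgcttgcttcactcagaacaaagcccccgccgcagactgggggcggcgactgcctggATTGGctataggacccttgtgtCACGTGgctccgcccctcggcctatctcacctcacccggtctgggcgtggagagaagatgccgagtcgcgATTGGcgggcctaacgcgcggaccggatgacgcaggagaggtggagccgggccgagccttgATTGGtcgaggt

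In these windows Acss2 has its CCAAT box on the other strand at position -73 and Nceh1 at -50, counted back from the start with -1 as the base before it. Pmvk has 1 at -136 in the promoter shown and none in its second annotated promoter. The promoter shown for Pmvk was picked because it holds more CCAAT boxes. Fasn has matches at -90, -62 and -59, the last 2 overlapping as a palindrome. Hsd17b7 has matches at -165, -73 and -12. Insig1 has its CCAAT box far upstream at -216. The E-box lies at -26 in Nceh1, at -143 in Hsd17b7 and at -101 in Insig1.

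The target of the knockdown was lower. Hsp90b1 had a centred log2 value of 0.74 in the empty vector group and -0.78 in the knockdown group, a difference of -1.52.

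Among the 16 transcript clusters of lipid genes, the knockdown mean lay below that of the empty vector in 14 and above it in 2. The median difference was -0.24, beside -0.16 over all transcript clusters of the table. The shares over the whole table were 59.9% lower and 40.1% higher. Past a fold of 1.3, which is 0.38 on the log2 scale, Pmvk, Acss2, Lpin1 and Scd1 were lower and Nceh1 was higher, so that 4 of 16 were lower and 1 was higher, beside 16.1% and 6.26% of the whole table. Insig1, at -0.30, was the lower member closest to that threshold without reaching it. Because the genes were chosen with this contrast known, nothing is read from these shares. When the median of -0.16 over all transcript clusters was taken as the zero point, 12 transcript clusters of lipid genes were lower and 4 were higher, and 2 were past the threshold on either side. Scd1 (-0.27) and Lpin1 (-0.32) then no longer reached it, and Hsd17b7 (0.45) did. The same shift changed the split of the whole table past the threshold from 385 lower and 150 higher to 159 lower and 527 higher. That median belongs to selected transcript clusters, 59.9% of them lower, and is not an estimate of no change.

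**Figure D1:**
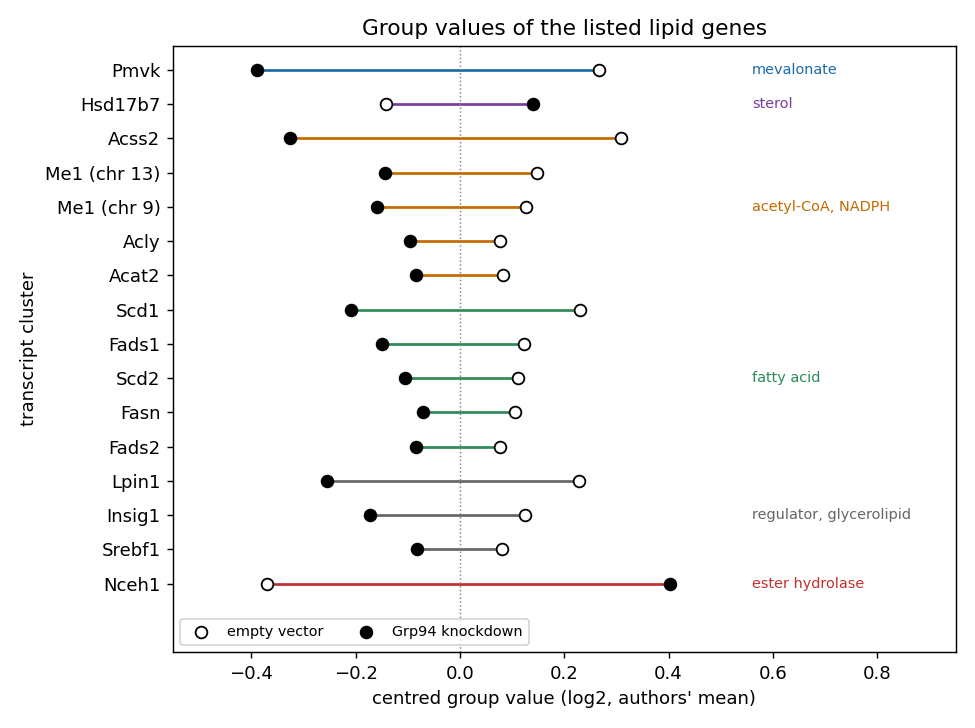
Centred log2 values (x axis, authors' mean of each group) of the 16 transcript clusters of listed lipid genes (y axis), open circles for the empty vector and filled circles for the Grp94 knockdown, with a line joining both. The filled circle lies to the left of the open one in 14 transcript clusters and to the right for Hsd17b7 and Nceh1.

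The mevalonate branch was represented by a single gene among the 6 of its list. Pmvk encodes phosphomevalonate kinase, which adds the second phosphate in the conversion of mevalonate. Pmvk (transcript cluster 10493548, chromosome 3, 89258463 to 89272931, plus strand, 30 probes) had a value of 0.27 in the empty vector group and -0.39 in the knockdown group. The difference of -0.66 corresponds to 63.5% of the empty vector mean, the lowest of all listed members and the 89th lowest of 2395. Hmgcs1, Mvk, Mvd, Idi1 and Fdps, the other steps from acetoacetyl-CoA to farnesyl diphosphate, were not listed.

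Of the 11 genes of the sterol branch from squalene onward only Hsd17b7 was listed, and it was higher. Hsd17b7 encodes the reductase that acts on the keto group left behind when methyl groups are removed from the sterol ring. Its transcript cluster (10359917, chromosome 1, 171879668 to 171899336, minus strand) had a value of -0.14 in the empty vector group and 0.14 in the knockdown group, a difference of 0.28 or 122% of the empty vector mean. Squalene synthase (Fdft1), squalene epoxidase (Sqle) and lanosterol synthase (Lss) were not listed, nor were the later enzymes Cyp51, Tm7sf2, Sc4mol, Nsdhl, Ebp, Sc5d and Dhcr7. Hence the mevalonate and sterol lists together gave values for Pmvk and Hsd17b7 alone, and these differed in direction.

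For the supply of acetyl-CoA and NADPH, 4 of 5 genes were listed on 5 transcript clusters, all lower. Acss2 makes acetyl-CoA from acetate in the cytosol and nucleus. Acss2 (10477649, chromosome 2, 155342695 to 155411460) went from 0.31 to -0.33, a difference of -0.63 or 64.5% of the empty vector mean, close to that of Pmvk. Acly, which makes acetyl-CoA from citrate exported by mitochondria, differed by only -0.17 (0.08 against -0.10). Acat2, the cytosolic thiolase that joins acetyl-CoA into acetoacetyl-CoA at the entry of the mevalonate pathway, also differed by -0.17 (0.08 against -0.08, and 0.00 after re-centring), read through 15 probes, the fewest among the members. Acss2 of the acetate route thus showed a larger difference than Acly of the citrate route, with no error computed for either. Aacs, which activates acetoacetate, was not listed.

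Me1, the malic enzyme that yields NADPH for fatty acid synthesis, was listed with a pair of transcript clusters. The first (10595480) lies on chromosome 9, from 86474983 to 86589834, and went from 0.13 to -0.16, a difference of -0.29. The second (10405753) spans 702 bp on chromosome 13, from 62915449 to 62916150, and went from 0.15 to -0.14, again a difference of -0.29. Both carry the same gene identifier, while the RefSeq gene table of GRCm38 places Me1 on chromosome 9. The second is therefore uncertain as a separate measurement, and whether its probes read the gene on chromosome 9 was not tested.

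Of the 8 genes of fatty acid synthesis, elongation and desaturation, 5 were listed and all were lower, with differences from -0.44 to -0.16 and a median of -0.22. The largest was that of Scd1, the stearoyl-CoA desaturase that makes monounsaturated chains. Scd1 (10467979, chromosome 19, 44468945 to 44482157) went from 0.23 to -0.21, a difference of -0.44 or 73.8% of the empty vector mean. Scd2, the isoform prominent in brain, had a smaller difference of -0.22 (0.11 against -0.11). Fads1, a desaturase of polyunsaturated fatty acids, differed by -0.27 (0.12 against -0.15). Fads2, the desaturase at the entry of that route, differed by -0.16 (0.08 against -0.08). Fasn, the fatty acid synthase itself, differed by -0.18 (0.11 against -0.07), that is 88.5% of the empty vector mean. Acaca, which makes the malonyl-CoA that Fasn uses, and the elongases Elovl5 and Elovl6 were not listed. On the scale centred on the median of the table, Fads2 was at 0.00 and Fasn, like Acly, at -0.01. Such values mark places near the median of the selected transcript clusters and do not show an absent difference.

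Among regulators and related genes, Lpin1, Insig1 and Srebf1 were listed and lower, and Srebf2 and Stard4 were not listed. Lpin1 encodes a phosphatidate phosphatase, which makes the diacylglycerol used for triglycerides and phospholipids. Lpin1 (10399478, chromosome 12, 16542763 to 16617772, 49 probes) went from 0.23 to -0.25, a difference of -0.48 or 71.6% of the empty vector mean. Insig1, which retains the SREBP precursor in the ER and is itself a target of SREBP, differed by -0.30 (0.12 against -0.17). Srebf1, the gene for the SREBP that acts mainly on fatty acid genes, differed by -0.16 (0.08 against -0.08), and lay at 0.00 on the scale centred on the median of the table. The gene for the factor thus had a difference like that of Fads2 and Fasn, while Scd1 and Insig1 differed more.

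**Figure D2:**
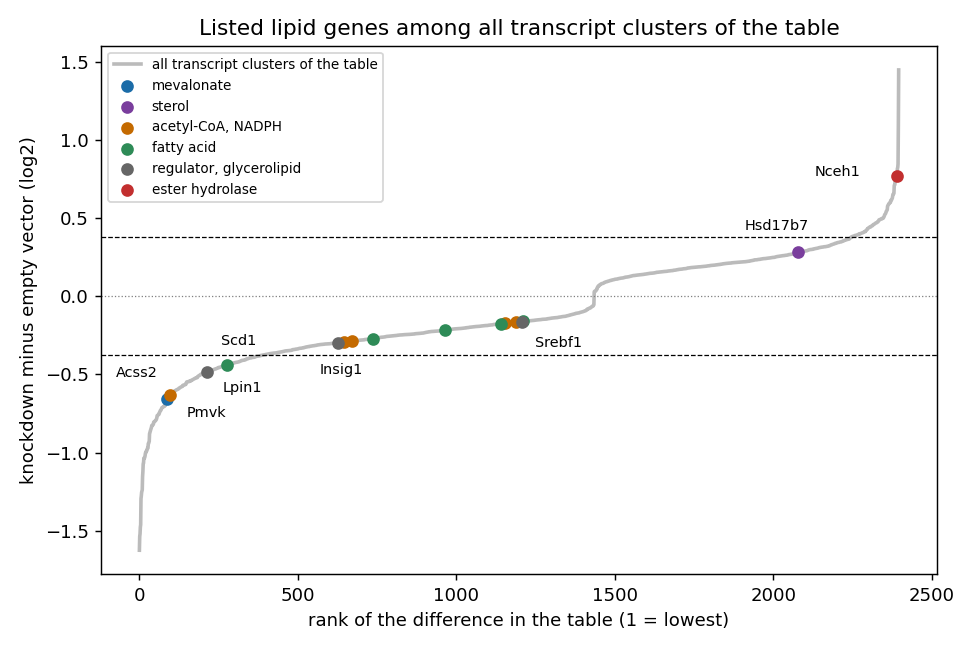
Difference between knockdown and empty vector (y axis, log2) against its rank among all 2395 transcript clusters (x axis, 1 is the lowest). The grey line shows the whole table, coloured points the listed lipid genes by pathway step, and dashed lines a fold of 1.3. Pmvk and Acss2 stand at ranks 89 and 98, and Nceh1 is the 6th highest.

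Nceh1 was opposite in direction to nearly all other members. It encodes a neutral cholesterol ester hydrolase of the ER membrane, which frees cholesterol from its stored ester. Nceh1 (10491083, chromosome 3, 27081917 to 27183374, plus strand, 31 probes) had a value of -0.37 in the empty vector group and 0.40 in the knockdown group. The difference of 0.77, or 171% of the empty vector mean, was the largest of the members in either direction and the 6th highest of the whole table. It exceeded the difference of Pmvk by 1.43 on the log2 scale. Re-centring on the median of the table raised it to 0.94.

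Other genes of lipid metabolism were then counted from 6 lists, of 124 symbols that include older synonyms. A total of 30 were listed, 23 lower and 7 higher, with a median of -0.28. Past a fold of 1.3, 8 were lower and 1 was higher, and after re-centring 3 were lower and 6 were higher. These counts stand beside 59.9% lower at any size and 16.1% lower and 6.26% higher past the threshold over the whole table, where re-centring gave 159 lower and 527 higher, and no test was made. For each list the 3 listed genes with the largest difference were named by rule, and the remaining ones named below were added after their values had been seen.

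Of further genes of the mevalonate and SREBP pathway, Insig2, a second retention protein, differed by -0.38 and Dhdds, which makes the dolichol precursor for ER glycosylation, by -0.30. Scap, Ggps1, Mbtps1 and Mbtps2 were not listed. Both Insig genes were thus lower, Insig2 just past a fold of 1.3 and Insig1, at -0.30, short of it. No error was computed for either.

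Of genes for uptake, transport and esterification of cholesterol, 5 were lower and 2 were higher. Stard5, which encodes a cytosolic sterol-binding protein, had the largest difference of all these lists, at -0.94 or 52.0% of the empty vector mean. Lrp8, a receptor for apolipoprotein E and reelin, differed by -0.32. Npc2, which hands cholesterol out of the lysosome, differed by -0.30, whereas its membrane partner Npc1 was higher by 0.22. Mylip, which encodes a ubiquitin ligase, was higher by 0.28. The esterifying enzymes Soat1 and Soat2 differed by -0.28 and -0.24, opposite in direction to Nceh1. Abca1 was not listed.

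Of 15 symbols of neutral lipid hydrolysis and lipid droplets, older synonyms included, 6 were listed, 5 lower and 1 higher. Lipa, the lysosomal acid lipase that also cleaves cholesterol esters, differed by -0.60 or 66.2% of the empty vector mean, 1.37 below Nceh1 on the log2 scale. Pnpla2, the main triglyceride lipase of lipid droplets, differed by -0.33, and the droplet coat genes Plin3 and Plin2 by -0.40 and -0.31. Faah, which hydrolyses fatty acid amides, differed by -0.20. The 1 higher transcript cluster, at 0.25, is shared by Ddhd2 and Bag4 and cannot be assigned to either.

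Both desaturase families extended beyond the members on chromosome 19. Fads3 differed by -0.79, or 57.6% of the empty vector mean, more than its neighbours Fads1 and Fads2. In the table's coordinates the transcript clusters of Fads3 and Fads2 are 2669 bp apart, and those of Fads2 and Fads1 overlap by 492 bp on opposite strands. In the second family, Scd3 was higher by 0.41, at 133% of the empty vector mean, while Scd1 and Scd2 were lower. Scd3 lies 50071 bp from Scd2, and Scd2 lies 87590 bp from Scd1. Scd genes are close paralogs and how far probes of 1 isoform read another was not tested. In all, 4 of the 16 transcript clusters of members lie on chromosome 19, which carries 4.05% of the table. These are Scd1, Scd2, Fads1 and Fads2, which were named into the set, so nothing is read from this share.

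Other genes of activation and elongation were lower by less. Acsl1, which activates long fatty acids, differed by -0.28, the citrate exporter Slc25a1 by -0.22 and the elongation reductase Tecr by -0.21. Genes of fatty acid oxidation, the opposing route, were also lower in all 5 listed cases. Cpt1a, which admits fatty acids to mitochondria, differed by -0.48, Peci by -0.44, Acaa2 by -0.28, Hadh by -0.28 and Etfb by -0.18. Glycerolipid genes were mixed, with Agpat9 at -0.53 and Cds2 at -0.11 (0.05 after re-centring), and Agpat3, Agpat6 and Lpin2 higher by 0.24, 0.22 and 0.12. Lpin2 was thus opposite in direction to Lpin1.

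**Figure D3:**
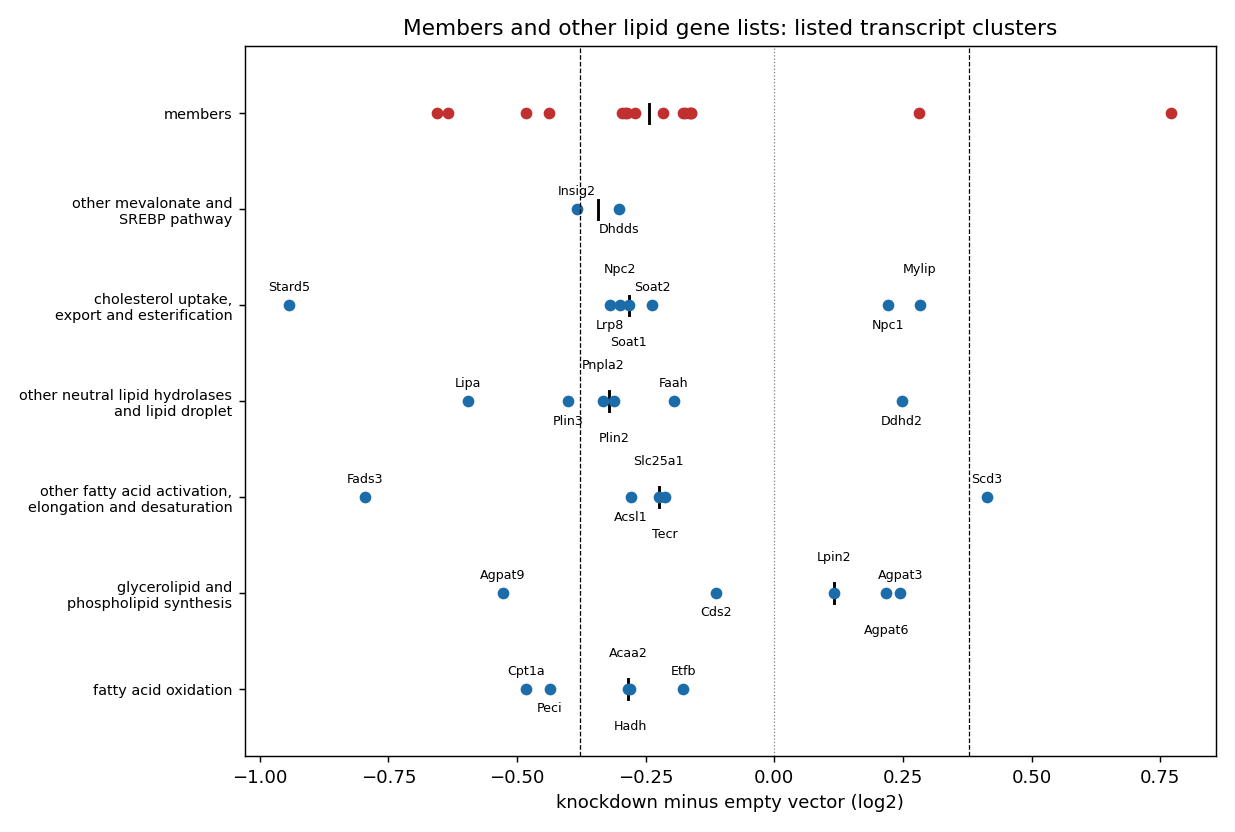
Difference between knockdown and empty vector (x axis, log2) for the members (red) and for the listed genes of 6 further lipid lists (blue), 1 row per list, with short black bars at the medians and dashed lines at a fold of 1.3. Stard5 lies farthest to the left at -0.94 and Nceh1, the rightmost red point, at 0.77, with Lipa at -0.60.

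In the promoters, shown above for 6 members, a CCAAT box was present in at least 1 promoter of 7 of 10 lower members and of both higher members. It was also present in 14 of 17 members that were not listed (82.4%), so listed and unlisted members were alike in holding it more often than not. Of all 27025 genes with a promoter 41.1% held it, and of 32851 single promoters 37.4%, as did 46.5% of the lower and 40.9% of the higher genes of the table. The E-box was found in both higher members, in 1 of 10 lower members (Insig1) and in 3 of 17 unlisted ones, beside 8.09% of all genes, 10.2% of the lower and 15.3% of the higher genes of the table. A GC box (GGGCGG on either strand), the site of SP1-type factors, was found in 7 of 10 lower members and in 38.2% of all genes, but in 69.7% of the lower genes of the table. A sterol regulatory element written as TCACNCCAC was found in none of the 12 listed members, in Hmgcs1 among the unlisted ones, and in 1.44% of all genes. Genes with several promoters have more chances of a match, and a match describes letters in this window and not binding.

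**Figure D4:**
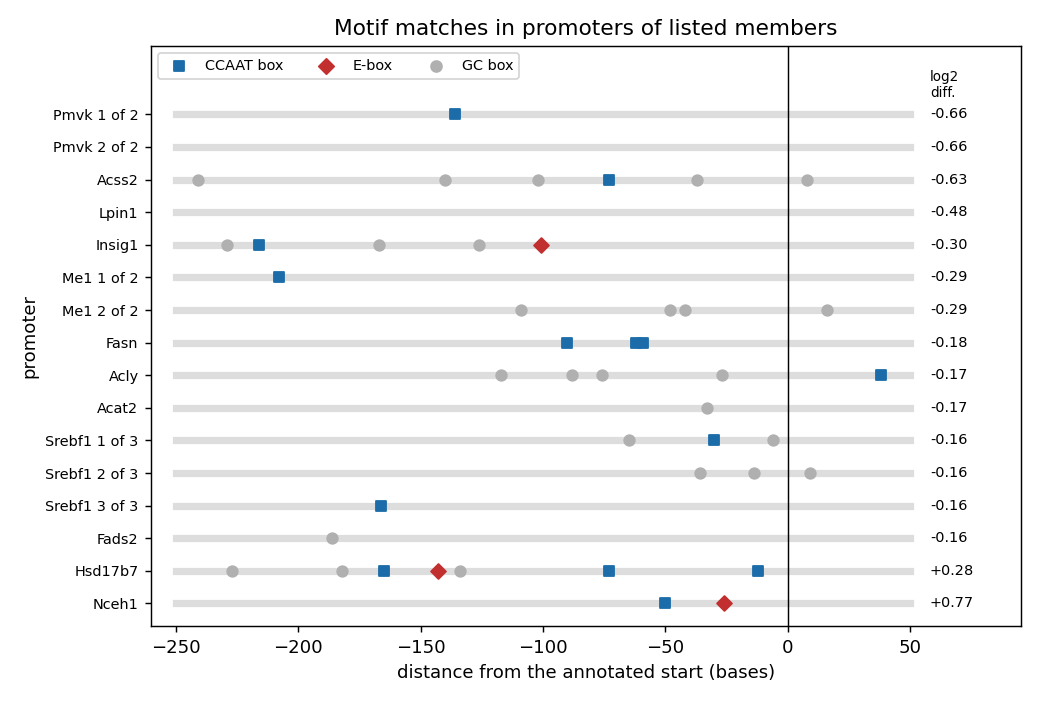
Motif matches by distance from the annotated start (x axis, bases) in the 16 promoters of 12 listed members (y axis), ordered by the log2 difference printed at the right. Blue squares mark CCAAT boxes, red diamonds E-boxes and grey circles GC boxes. Both promoters at the bottom, of the higher members Hsd17b7 and Nceh1, hold a CCAAT box and an E-box. The promoter of Lpin1 and the second promoter of Pmvk hold no match.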

How the data were processed

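Labeled cDNA from total RNA of transfected N2a cells was hybridised to the Affymetrix arrays, and the data were analysed by the authors in Agilent GeneSpring GX, with genes of low expression excluded. The values used are log2 group means deposited by the authors, centred for each transcript cluster. Summarization, normalization between arrays and genome build are not given in the sources used here. The deposited table also holds the authors' fold changes, p-values and q-values, which were not used, so every row rests on the authors' selection by significance and no standard error is given. Groups were taken from sample titles.

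Symbols were split at the separator and rows naming a member were kept. Differences of group means were counted on either side of 0 and past a fold of 1.3. Members and lists were chosen with earlier results of these data known. By rule, named genes were Hsp90b1, all listed members and the 3 largest differences of each further list, and other genes of those lists were named after their values were seen. No linear model could be fitted without values per array. Of the 36 members, 35 matched the RefSeq gene table by symbol and 1 by synonym (Sc4mol). Alternatives changed the fold (1.2 and 1.5), zero point, treatment of rows with several symbols, counting unit and promoter window. Scripts ran under Python 3.11.15 (pandas 2.3.3, numpy 2.4.6, matplotlib 3.10.9) and were tested on simulated data.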

Additional observations from a re-analysis of the deposited data

How the results depend on the processing

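Only 1 value per group was used, so the spread between arrays, the removal of single arrays and a linear model could not be examined. No paired analysis was possible because the columns hold 1 mean per group and carry no replicate number. The planned fits on values per array were therefore not run.

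Of the members, 14 transcript clusters were lower and 2 were higher. With the zero point at the median of the table, 4 were higher, because Fads2 (0.0034) and Srebf1 (0.0019) crossed it, and without Nceh1 1 was higher. Past a fold of 1.3, 4 were lower and 1 was higher. In its place there were 2 lower and 2 higher after re-centring, 8 lower and 2 higher at 1.2-fold, 2 lower and 1 higher at 1.5-fold, and 0 higher without Nceh1. The whole table held 761 lower and 355 higher at 1.2-fold, and 128 lower and 34 higher at 1.5-fold. The median of -0.24 became -0.080 after re-centring, -0.22 by gene symbol, -0.22 without the second Me1 transcript cluster and -0.27 without Nceh1. Leaving out that Me1 transcript cluster, and both alternatives for the further lists, were chosen after seeing the data. Another 34 recomputed counts and medians, rows of several symbols, synonyms and the promoter window among them, stayed within 1.5 times of the reported count or gave the same median to 2 decimals. Re-centring shifted the difference of every single member by the same amount.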
